A study of Mus musculus with 18 samples.

Results

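The comparison described here is between the sg6 Atrx KO clone and the WT line of C3H/10T1/2 mesenchymal progenitor cells (MPCs), in RNA from which ribosomal RNA had been depleted. Its members are the 24100 genes of the rRNA-depleted count table that carry a gene entry of their own, without the transposable element loci of the same table, and its samples are 6 of the 18 libraries of the series. C3H/10T1/2 (CCL-226) is a multipotent mouse embryo fibroblast line. The WT line is isogenic and had received the Cas9 vector empty, with no sgRNA, and the sg6 line (labelled B10) is 1 clone grown out after Cas9 editing of Atrx with the sgRNA named sg6. Both were grown in 10 cm dishes in normal culture, without differentiation cues, and each gave 3 libraries. A difference between them therefore holds both the Atrx edit and whatever else set this clone apart from the WT line, and these cannot be told apart. The study made the rRNA-depleted libraries to ask whether transposable elements lose repression without ATRX, and the genes read here come from the same table. A second KO clone made with another sgRNA, sg5 (labelled G7), was sequenced beside them and shares the WT libraries, so its values are set beside those of sg6 where they differ.

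ATRX is a chromatin remodeller of the SWI/SNF family that, with its partner DAXX, deposits the histone variant H3.3, and it is needed to keep heterochromatin marked by H3K9me3 at repeats and at some imprinted genes. Most messenger RNAs and many long noncoding RNAs (lncRNAs) end in a poly(A) tail, but replication-dependent histone mRNAs end in a stem-loop, and the RNA components of RNase P, RNase MRP and telomerase, the snoRNAs, the scaRNAs and the snRNAs have no such tail in their mature form. Libraries made by rRNA depletion keep these RNAs, and libraries made by poly(A) selection mostly lose them. Xist, the lncRNA that coats and silences an X chromosome in female cells, has been linked to ATRX as one of its RNA partners.

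The 6 libraries held between 23989275 and 33187136 counts, of which 84.5% to 88.7% fell on genes, and 13303 of the 24100 genes had enough counts to be tested. The lowest gene share was that of WT replicate 3. A gene was called where edgeR's quasi-likelihood test gave an adjusted p below 0.05 and the log2 fold change to WT was above 1 or below -1. In the sg6 clone 765 genes were called (background 5.75% of the genes tested), of which 288 were up (2.16%) and 477 down (3.59%). Without WT replicate 3 there were 170 up and 328 down. Every sg6 library was above every WT library in 17.1% of the genes tested and below in 14.2%, which is the background for each remark that groups did not overlap. Between the clones, 0.925% of the genes tested were higher in sg6 than in sg5 and 0.556% lower. Levels are given as CPM, each library's counts set to a common total with TMM factors. In bulk RNA, fewer cells of a type and less RNA per cell cannot be told apart.

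Atrx RNA was read first, as the check of the label. It stood at 222, 192 and 231 CPM in the 3 WT libraries and at 101, 75.6 and 83.6 CPM in the 3 sg6 libraries. The groups did not overlap, and RNA remained in every sg6 library. The mean fell from 215 ± 20.2 to 86.6 ± 12.7 CPM (SD, n = 3), a log2 fold change of -1.31 ± 0.20 (SE, edgeR adjusted p = 0.00227), and sg5 gave -1.39.

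Noncoding genes made up 3284 of the genes listed, and 910 of them were tested. Of these, 9 were called up (0.989%) and 31 down (3.41%), against 2.16% and 3.59% over all genes tested, and the median log2 fold change was -0.01 against 0.04 over all genes. The losses were led by Xist and its antisense partner Tsix, while no RNA of the classes without a tail passed the test. By type, 4 of 631 tested lncRNAs were called up (0.634%, or 7 genes with the replicate block) and 27 down (4.28%). Among 179 miRNA genes 4 were up (2.23%) and 1 was down (0.559%). These shares lie near or below those over all genes tested. Of 6 genes annotated as antisense RNAs 1 was up and 3 were down. The counts were 5 up and 19 down without WT replicate 1, 5 up and 26 down without WT replicate 2, and 3 up and 18 down without WT replicate 3.

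**Figure D1:**
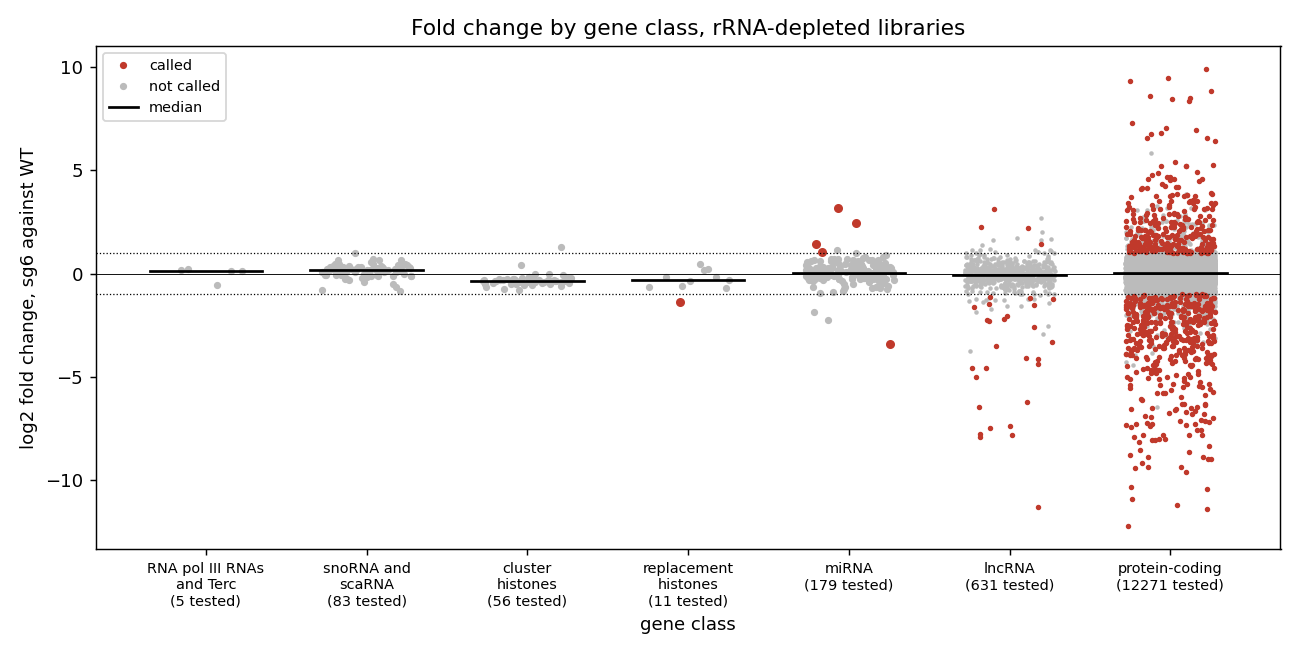
Log2 fold change of sg6 against WT (vertical axis) for every gene tested, by gene class (horizontal axis), with called genes in red, other genes in grey, medians as black bars and dotted lines at a log2 fold change of 1 and -1. The snoRNAs, the cluster histones and the RNAs of the leftmost column hold no called gene, whereas the lncRNAs hold 27 calls below 0 and 4 above. Values of genes without a count in a group come from the fit and have no fixed size.

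The RNA components of RNase P and RNase MRP, the enzymes that trim tRNA and rRNA precursors, had overlapping levels in the lines. Rpph1, the RNA of RNase P, had 45158, 41602 and 43375 CPM in WT and 42748, 48527 and 50375 CPM in sg6. Rmrp, the RNA of RNase MRP, had 25429, 23085 and 21429 CPM in WT and 24988, 27097 and 27400 CPM in sg6. The groups overlapped for both genes, with log2 fold changes of 0.12 ± 0.12 (SE, edgeR adjusted p = 0.775) for Rpph1 and 0.18 ± 0.12 (adjusted p = 0.596) for Rmrp.

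Terc, the RNA template of telomerase, had 75.7, 77.2 and 65.6 CPM in WT and 20.4, 62.2 and 64.6 CPM in sg6. A single sg6 library, replicate 1, was far below the others, and the remaining pair lay just under the lowest WT library. The log2 fold change was -0.57 ± 0.31 (edgeR adjusted p = 0.512). Of the 8 listed RNAs in this group, 5 were tested and 0 were called by edgeR or by DESeq2, and 0 had an unadjusted p below 0.05. As a share of all gene counts the group held 7.63%, 7.47% and 8.31% in WT and 7.28%, 7.86% and 8.37% in sg6 (exact two-sided permutation test, p = 0.9, where 3 libraries against 3 cannot go below 0.1).

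Small nucleolar and Cajal body RNAs, which guide the chemical modification of rRNA and snRNA, gave 83 tested genes of 111 listed. None was called by edgeR or by DESeq2, and 5 had an unadjusted p below 0.05. Their median log2 fold change was 0.16 and ran from -0.09 to 0.42 over the fits that each left out 1 library, so its sign was not fixed by these libraries. The extremes were Snora74a at 1.02 and Scarna9 at -0.87. The genes that host snoRNAs in their introns were not called either, with 0 of 24 tested genes past the threshold in edgeR or DESeq2 and 8 with an unadjusted p below 0.05, at a median of 0.29. The closest to a call was Epb41l4aos, at 0.71 ± 0.18 (edgeR adjusted p = 0.0557). Both minor-spliceosome snRNAs that were tested, Rnu11 at -0.40 and Rnu12 at -0.07, were not called.

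Replication-dependent histone genes, whose mRNAs end in a stem-loop and accumulate in S phase, were lower in nearly every case without any single gene passing the test. Of 58 listed, 56 were tested, 54 had a log2 fold change below 0 (6112 of 13303 over all genes tested), the median was -0.36, and edgeR and DESeq2 called 0 while 6 had an unadjusted p below 0.05. Over the fits that each left out 1 library the median stayed between -0.59 and -0.16. H3c14, which encodes histone H3, had 1184, 1134 and 769 CPM in WT and 565, 846 and 618 CPM in sg6, and sg6 replicate 2 lay above WT replicate 3, while each sg6 library was below the WT library of the same number. Its log2 fold change was -0.61 (edgeR adjusted p = 0.246).

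Summed over the list, histone mRNA took 3.97%, 4.01% and 3.13% of gene counts in the WT libraries. In sg6 it took 2.05%, 3.33% and 2.53%. The groups overlapped, since sg6 replicate 2 was above WT replicate 3. The means were 3.70% ± 0.494 and 2.64% ± 0.644 (SD, n = 3), a difference of -1.06 percentage points (exact two-sided permutation test, p = 0.2, smallest possible 0.1). Read as pairs by replicate number, each sg6 library was below its WT partner, with differences of -1.91, -0.68 and -0.60 percentage points (exact two-sided permutation test within pairs, p = 0.25, the smallest possible). Cell cycle genes were read beside them, and 0 of 30 were called by edgeR or DESeq2, with 1 at an unadjusted p below 0.05 and a median of -0.16. Their part in the histone level was not tested.

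In the polyA libraries of the same lines, which hold few reads of these genes, the difference had the opposite sign. There histone genes took 0.00675%, 0.00720% and 0.00999% of gene counts in WT and 0.0145%, 0.0148% and 0.0191% in sg6 (exact two-sided permutation test, p = 0.1, the smallest possible). Every sg6 library was above every WT library. Of 34 histone genes tested in the polyA libraries 16 were called up (background 3.64% of all polyA genes tested). H2bc4, a gene for histone H2B, had a polyA level of 15.1, 15.2 and 23.9 CPM in WT and of 50.3, 46.8 and 66.3 CPM in sg6 (log2 fold change 1.59, edgeR adjusted p = 0.00139), while its rRNA-depleted log2 fold change was -0.00. H4c8, a gene for histone H4, gave 2.59 in polyA (adjusted p = 0.00171) and -0.33 in rRNA-depleted libraries. The difference between the kinds of library was not tested, because they were counted by different tools and normalised separately.

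**Figure D2:**
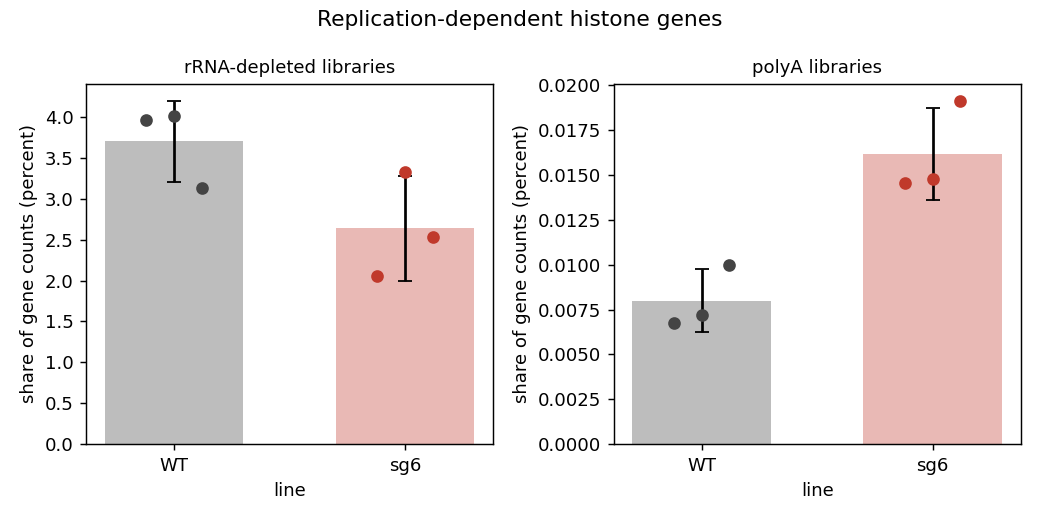
Share of gene counts on replication-dependent histone genes, in percent, in the rRNA-depleted (left) and polyA libraries (right) of WT and sg6, with 1 point per library, bars for the mean and error lines for the SD (n = 3). The sg6 mean is 2.64% against 3.70% on the left, where the groups overlap, and the 3 sg6 points are all above the 3 WT points on the right.

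Replacement histones, whose mRNAs carry a tail and are made outside S phase too, had 1 of 11 genes called, down (9.09%, background 3.59%). Of the 11, 8 had a log2 fold change below 0 (6112 of 13303 over all genes tested), and the median was -0.29. Their share of gene counts was 0.42%, 0.37% and 0.38% in WT and 0.30%, 0.28% and 0.29% in sg6. These groups did not overlap (exact two-sided permutation test, p = 0.1, the smallest possible). In polyA libraries the share was 0.29%, 0.34% and 0.34% in WT and 0.19%, 0.20% and 0.22% in sg6, again without overlap. Macroh2a2, the gene for macroH2A2, a variant found in silent chromatin, had 32.4, 28.5 and 30.6 CPM in WT and 13.5, 10.5 and 11.4 CPM in sg6. The groups were well apart. The log2 fold change was -1.37 ± 0.16 (edgeR adjusted p = 0.000219), and the polyA libraries gave -1.13 (adjusted p = 0.000350).

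Xist (chromosome X, 103460373 to 103483233 in GRCm38, minus strand) had the most negative fold change of all noncoding genes that still had counts in sg6. It stood at 316, 427 and 571 CPM in WT and at 0.172, 0.224 and 0.0876 CPM in sg6. No sg6 library came near the WT range. The mean went from 438 ± 128 to 0.161 ± 0.0687 CPM (SD, n = 3), a log2 fold change of -11.34 ± 0.34 (edgeR adjusted p = 7.11e-10), and it lay between -11.63 and -11.01 in the fits without 1 library. In the sg5 clone Xist was at 221, 241 and 269 CPM, and the direct test of sg6 against sg5 gave -10.49 (adjusted p = 2.76e-09). In the polyA libraries sg6 against WT gave -11.94.

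Tsix, transcribed across Xist from the plus strand (103431517 to 103484957), acts as its antisense repressor in early development. It had 19.5, 23.0 and 26.7 CPM in WT and no count in any sg6 library, at least 186-fold lower when 3 counts per library are taken as the floor. The sg5 clone had 13.5, 16.9 and 14.4 CPM. Since the strand setting of the counting is not stated, reads from the shared stretch cannot be assigned to Xist or Tsix with certainty. In the polyA libraries Tsix had few counts, and the ratio of WT to sg6 was 12.3 (exact Poisson interval at 95%, 3.86 to 62.9, for counting error only).

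Other genes of the X inactivation centre were not called. Jpx, an lncRNA that activates Xist, gave a log2 fold change of -0.54, Ftx, a lncRNA next to it, -0.08, Rlim, the ubiquitin ligase that removes a repressor of Xist, -0.04, and the neighbour Chic1 -0.26. The X-linked lncRNA Firre, which is not part of the centre, gave -0.16. Over the X chromosome 452 genes were tested, of which 7 were called up (1.55%, background 2.16%) and 39 down (8.63%, background 3.59%). The median over them was -0.00. In the sg5 clone, where Xist RNA was present, 13 of the same 452 genes were up (background 3.04%) and 47 down (background 4.31%).

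**Figure D3:**
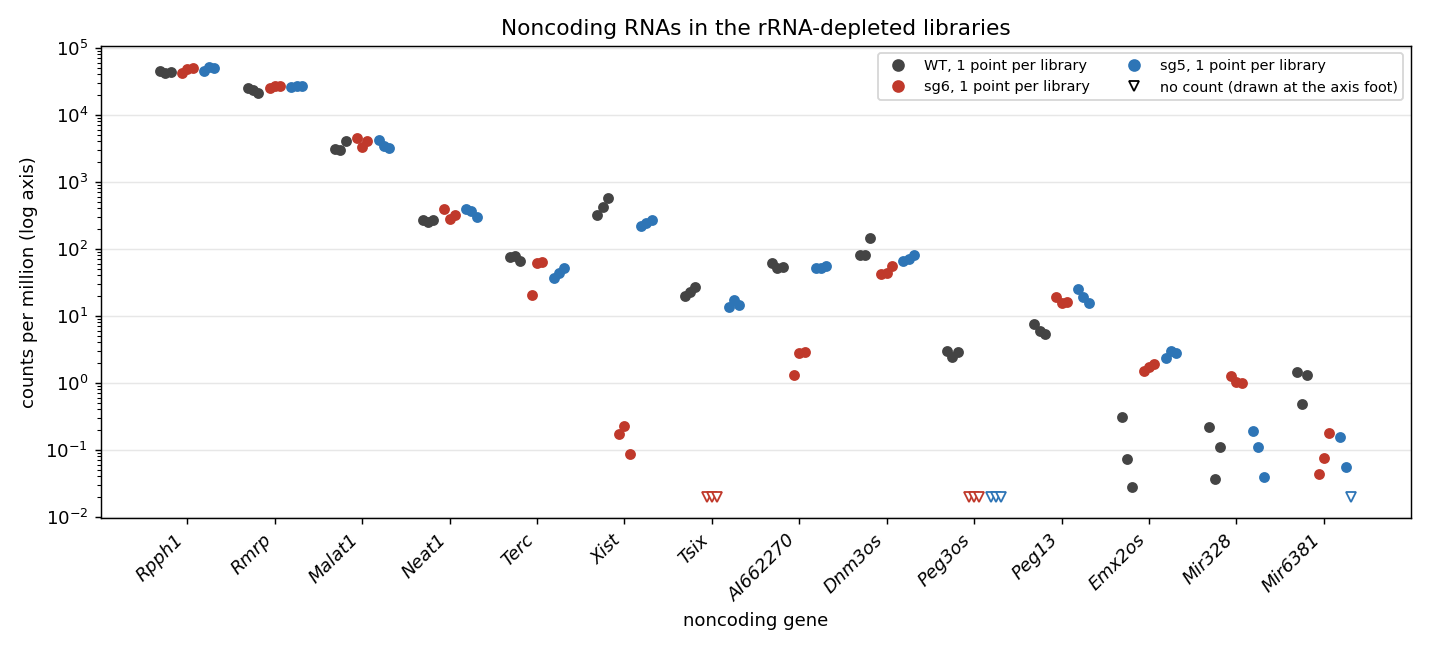
CPM of 14 noncoding genes (log axis) in each rRNA-depleted library of WT (grey), sg6 (red) and sg5 (blue), 1 point per library, with open triangles at the foot for libraries without a count. Rpph1, Rmrp, Malat1 and Neat1 sit at like levels in all lines, whereas Xist, Tsix and AI662270 are far below WT or absent in sg6 alone. For Xist and Tsix the sg5 points also lie below those of WT, by far less.

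AI662270, an lncRNA gene on chromosome 11 (83223576 to 83226584), also fell in sg6 and was not called in sg5. It had 61.4, 52.6 and 53.2 CPM in WT, 1.29, 2.79 and 2.89 CPM in sg6 and 51.3, 52.5 and 54.9 CPM in sg5. The sg6 libraries stood apart from all the rest. The log2 fold change to WT was -4.58 ± 0.25 (edgeR adjusted p = 4.42e-07), the direct test against sg5 gave -4.50 (adjusted p = 5.94e-07), and polyA gave -5.76. A less abundant lncRNA, 4930570G19Rik, showed the same order, with 2.76, 2.25 and 3.34 CPM in WT, 0.129, 0 and 0.219 CPM in sg6 and 1.0, 0.947 and 1.58 CPM in sg5. Its sg6 change was -4.59 (adjusted p = 0.000334) and its difference from sg5 -3.36 (adjusted p = 0.0192).

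Several lncRNAs had no count at all in sg6. Peg3os, the antisense partner of the imprinted gene Peg3, had 2.93, 2.43 and 2.90 CPM in WT and none in sg6 or sg5, at least 22.2-fold lower. By the same floor 1700025F24Rik was at least 9.71-fold lower and A330076H08Rik, whose span holds Mir344g, at least 8.59-fold lower. In C130071C03Rik, whose span holds Mir9-2, a single read remained in the sg6 libraries, and the ratio of WT to sg6 was 120 (exact Poisson interval at 95%, 21.1 to 4759). Over all genes, 46 of the 477 that were called down had no count in any sg6 library, 7 of them noncoding.

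E130310I04Rik and Gm13544 differed between the kinds of library. E130310I04Rik had 1.49, 0.590 and 1.25 rRNA-depleted CPM in WT and none in sg6, at least 8.94-fold lower, while its polyA log2 fold change was -0.39 (edgeR adjusted p = 0.582). It lies opposite to Mylk, the gene for myosin light chain kinase, which itself fell by 4.45 on the log2 scale, so reads of Mylk may be part of its WT value, and this was not tested. Gm13544, which overlaps Acvr1c, had 1.40, 1.33 and 1.42 CPM in WT and 1 read in sg6 (ratio 101, 95% interval 17.8 to 4022), against -0.51 in polyA (adjusted p = 0.0379).

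Dnm3os, the host of Mir199a-2 and Mir214 within Dnm3, was an lncRNA with a smaller loss. It had 80.1, 80.5 and 145 CPM in WT and 42.0, 43.0 and 55.9 CPM in sg6, with no overlap. The log2 fold change was -1.11 (edgeR adjusted p = 0.0129), but without WT replicate 3, the highest library, it was -0.78 and no longer beyond 1. Msx1os fell by 1.55 on the log2 scale and overlaps Msx1, a homeobox gene of mesenchyme, which fell by 1.66. The call of Msx1os was lost whichever library was left out (edgeR adjusted p from 0.0595 to 0.113) and with no filter (0.435), and that of Msx1 without sg6 replicate 2 (adjusted p = 0.0723) or sg6 replicate 3 (adjusted p = 0.0978). In sg5 neither was called, with Msx1os at 0.30 and Msx1 at 0.44, and the direct difference of sg6 from sg5 was -1.85 for Msx1os (adjusted p = 0.0235) and -2.10 for Msx1 (adjusted p = 0.00872). The 18 other lncRNAs that were called down had log2 fold changes from -7.51 to -1.17 and WT means from 0.611 to 28.4 CPM.

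Emx2os, transcribed away from the homeobox gene Emx2, rose most among the noncoding genes. It had 0.307, 0.0737 and 0.0278 CPM in WT and 1.51, 1.71 and 1.93 CPM in sg6, well apart, for a log2 fold change of 3.77 ± 0.52 (edgeR adjusted p = 0.000896). The sg5 clone gave 4.42 and polyA 1.78. Emx2 itself rose by 2.75 (adjusted p = 0.00720), and without WT replicate 3 its value was 2.37 with an adjusted p of 0.0654. Peg13, an imprinted lncRNA inside an intron of Trappc9, had 7.66, 5.97 and 5.43 CPM in WT and 19.3, 15.4 and 16.2 CPM in sg6, again with no overlap. Its log2 fold change was 1.42 (adjusted p = 0.00192) and Trappc9 gave -0.01. The other lncRNAs that rose were Cerox1 by 3.11, D130017N08Rik by 2.26 and Arhgap20os by 2.22, the latter beside Arhgap20 at 2.51. The call of D130017N08Rik was lost without WT replicate 1 (2.03, adjusted p = 0.0561) and without WT replicate 3 (2.15, adjusted p = 0.0896), and that of Cerox1 without sg6 replicate 1, WT replicate 2 or WT replicate 3 (2.54 to 2.99, adjusted p from 0.0566 to 0.102).

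Many noncoding genes lie within other genes, and the table does not tell which RNA a shared read came from. Of the 31 that fell, 12 (38.7%) overlapped another tested gene, and 8 overlapped one that was itself called down. Of the 9 that rose, 7 overlapped a tested gene and 3 a gene called up, whereas of the 870 that were not called 613 (70.5%) overlapped a tested gene.

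Most of the listed nuclear or abundant lncRNAs were not called. Malat1, a component of nuclear speckles, had 3072, 2979 and 4113 CPM in WT and 4469, 3330 and 4118 CPM in sg6, overlapping, with a log2 fold change of 0.23 (edgeR adjusted p = 0.666). Neat1, the scaffold of paraspeckles, had 270, 254 and 272 CPM in WT and 390, 281 and 319 CPM in sg6. All 3 sg6 values were above WT, yet the log2 fold change of 0.31 had an adjusted p of 0.427. Kcnq1ot1 at -0.03, Airn at -0.37, Norad at 0.02, Tug1 at -0.16 and Gas5 at 0.39 were likewise not called. Of 36 such lncRNAs listed and 27 tested, 3 were called, all down (11.1%, background 3.59%). They were Dnm3os and the overlapping pair Xist and Tsix.

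H19, an imprinted lncRNA expressed from the maternal allele, had 9.15, 4.24 and 4.62 CPM in WT and 2.63, 2.31 and 2.67 CPM in sg6. The groups did not overlap, with WT replicate 1 far above the other WT libraries. The log2 fold change was -1.24 (edgeR adjusted p = 0.0791), whereas a fit that blocks on replicate number gave -1.15 and an adjusted p of 0.0246. The sg5 clone fell further, to 0.423, 0.223 and 0.155 CPM, and sg6 was above sg5 by 3.21 on the log2 scale (adjusted p = 0.00315). Meg3, its counterpart on chromosome 12, was below the count filter.

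Of 179 miRNA genes tested, 5 were called, and the mature sequences of 4 of them are printed to identify them and to show that they share no seed. In libraries of long RNA a read on a miRNA gene comes from its precursor or its host, not from the mature miRNA. The sequences are RefSeq's for GRCm38, written 5′ to 3′ with the seed, bases 2 to 8, in capitals. All 7 seeds differ.
mmu-miR-6381: cAGGAUGCuggugacaugagu
mmu-miR-7678-5p: uUACAAGGgcuggauaggaau
mmu-miR-7678-3p: uUUCCUUAcuuucucuuguagc
mmu-miR-6939-5p: cAGGCAGCugguugguggaag
mmu-miR-6939-3p: cCUCACUUgacccgcugcag
mmu-miR-7225-5p: aCGUAGACuguguagaagcc
mmu-miR-7225-3p: cUUCUAGAcagccucugcagca

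All 5 lie inside protein-coding genes, and 4 of the 5 had a fold change close to that of the gene around them. Mir328, named without a sequence, had 0.219, 0.0369 and 0.111 CPM in WT and 1.25, 1.04 and 1.01 CPM in sg6, with no overlap. Its log2 fold change was 3.17 (edgeR adjusted p = 0.00676), or 3.10 with an adjusted p of 0.0530 without WT replicate 3. It lies on the strand opposite to Elmo3, an adaptor of Rac signalling, which had 3.72, 3.02 and 3.34 CPM in WT and 42.3, 24.8 and 27.0 CPM in sg6 (log2 fold change 3.22, adjusted p = 2.42e-05). Neither was called in sg5, where Mir328 gave -0.04 and Elmo3 0.14, and the direct difference of sg6 from sg5 was 3.21 for Mir328 (adjusted p = 0.0277) and 3.08 for Elmo3 (adjusted p = 0.000113).

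Mir6381, inside the interferon-induced GTPase gene Gbp2 on the opposite strand, had 1.45, 0.479 and 1.31 CPM in WT and 0.0431, 0.0745 and 0.175 CPM in sg6. The groups were apart, with a log2 fold change of -3.42 (edgeR adjusted p = 0.0189) beside -3.38 for Gbp2. The call was lost without sg6 replicate 1, sg6 replicate 2, WT replicate 1 or WT replicate 3, with values from -3.25 to -3.07 and adjusted p from 0.0608 to 0.154.

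Mir7678 (log2 fold change 1.45, adjusted p = 0.0349) lies in Slpi, a protease inhibitor gene, at 1.47. Mir6939 (1.03, adjusted p = 0.0479) lies in Akt1, the kinase gene, at 0.99. Mir7225 (2.44, adjusted p = 0.0255) lies in Pde4dip, which encodes a centrosome and Golgi anchor, at 0.45. These calls by edgeR were not stable. That of Mir6939 was lost whichever library was left out (0.93 to 1.13, adjusted p from 0.117 to 0.230), with no filter on low counts (adjusted p = 0.597), and, at a log2 fold change of 0.98 or 0.99, with at least 10 counts in every library or with genes alone. Those of Mir7678 (1.07 to 1.67, adjusted p from 0.0611 to 0.164) and of Mir7225 (2.24 to 2.76, adjusted p from 0.0528 to 0.135) were lost without either of sg6 replicates 1 and 3 or any WT library, and that of Mir7225 with no filter too (adjusted p = 0.127). Of the host genes, Slpi was called up, but not without any one of the WT libraries (adjusted p from 0.0519 to 0.0693), and Akt1, just under the fold threshold, was called up in 8 of its 13 alternatives (highest value 1.09).

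The polyA libraries of the same lines, made from RNA with a tail and sequenced elsewhere, also showed most of these changes. Of the 31 noncoding genes that fell, 28 were tested there, and 23 were called down (background 7.54% of all polyA genes tested), which is 74.2% of the 31 and 28.4% of the 81 noncoding genes called down in polyA. Of the 9 that rose, 5 were tested and 4 were called up (background 3.64% of all polyA genes tested). That is 44.4% of the 9 and 16.7% of the 24 called up in polyA.

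**Figure D4:**
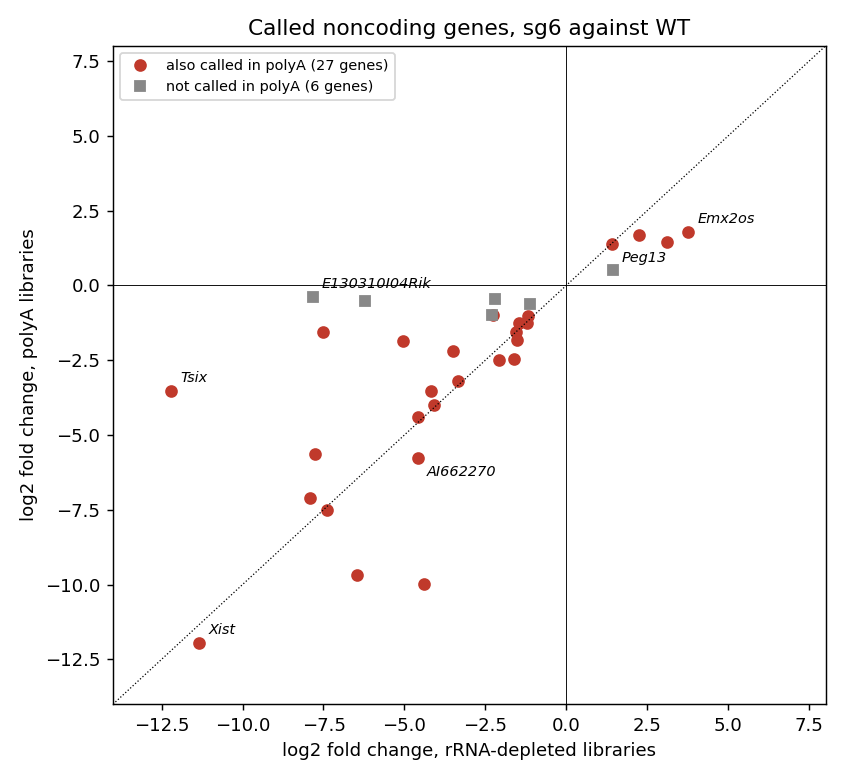
Log2 fold change of sg6 against WT in rRNA-depleted (horizontal axis) and polyA libraries (vertical axis) for the 33 called noncoding genes that were tested in both, with red circles for genes called in both and grey squares for genes not called in polyA. Xist lies near the dotted line of equal values, whereas Tsix and E130310I04Rik lie well above it. Fold changes of genes without a count in sg6 come from the fit and are not bounds.

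Imprinted protein-coding genes, which are read from 1 parental allele and include known targets of ATRX, moved both ways. Of 34 listed and 17 tested, 3 rose and 3 fell, 17.6% each, against 2.16% up and 3.59% down over all genes tested. Peg3, a zinc-finger gene read from the paternal allele, had 37.4, 29.6 and 33.2 CPM in WT and 0.172, 0 and 0.0438 CPM in sg6, a near-complete loss that its antisense RNA Peg3os shared. Its log2 fold change was -8.82 (edgeR adjusted p = 8.35e-06) and that of sg5 -7.71. Sgce, the gene for epsilon-sarcoglycan, had 2.67, 1.70 and 2.76 CPM in WT and 30.9, 21.3 and 25 CPM in sg6, with every sg6 library far above WT. It rose by 3.43 (adjusted p = 1.98e-06), and its neighbour Peg10, a gene derived from a retrotransposon, rose by 3.81 (adjusted p = 0.00227). Mcts2, a retrogene, rose by 1.07, and its call was lost without WT replicate 2, at 0.99, and just lost without WT replicate 3.

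Ndn and Plagl1 differed between the clones. Ndn, the gene for the growth suppressor necdin, had 15.3, 12.2 and 13.5 CPM in WT, 4.74, 4.29 and 4.43 CPM in sg6 and 49.3, 38.0 and 39.0 CPM in sg5. The 3 lines did not overlap, and the clones lay on opposite sides of WT, with -1.61 in sg6 (edgeR adjusted p = 0.000124), 1.62 in sg5 and -3.23 for sg6 against sg5 (adjusted p = 5.94e-07). Plagl1, a zinc-finger growth regulator, gave -2.81 in sg6 and -6.03 in sg5, a difference of 3.22 (adjusted p = 0.00872).

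Many interferon response genes fell in sg6. Of 30 listed, 23 were tested and 11 were called down (47.8%, background 3.59%). The median log2 fold change was -1.26 against 0.04 over all genes tested. The genes that fell were the antiviral effectors Mx1, Ifit1, Oas1a, Oas1g and Oas2, the RNA sensors Ifih1, Ddx58 and Ddx60, the ubiquitin-like modifier Isg15 and its protease Usp18, and Ifi44. Irf9 at 0.05 and Irf7 at -0.53, genes for transcription factors of the pathway, were not called.

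Ifit1 had 19.8, 6.34 and 21.0 CPM in WT and 3.27, 1.12 and 1.80 CPM in sg6, a log2 fold change of -2.93 (edgeR adjusted p = 0.0105). Isg15 had 2.54, 1.11 and 1.73 CPM in WT and 0.215, 0.335 and 0.482 CPM in sg6, a change of -2.36 (adjusted p = 0.00822). Ddx58, which encodes the sensor RIG-I, had 62.4, 43.2 and 66.0 CPM in WT and 33.6, 18.5 and 26.6 CPM in sg6, a change of -1.13 (adjusted p = 0.0191). The groups did not overlap in any of the 3 genes, and WT replicate 2 was the lowest WT library in each.

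Mx1 had 1.75, 0.885 and 1.70 CPM in WT and a single read over the sg6 libraries (ratio of WT to sg6 106, 95% interval 18.7 to 4223). Oas1a fell by 4.27 (edgeR adjusted p = 0.00132) and Oas1g had no read in sg6, at least 7.62-fold lower. Oas1a and Oas1g are close paralogs, so how their shared reads were split is uncertain. The number of interferon genes called down was 4 without WT replicate 1, 6 without WT replicate 3 and 6 without sg6 replicate 3, 9 without sg6 replicate 2 and 14 without WT replicate 2. With at least 10 counts in every library, which leaves 14 of the 23 genes, 3 were down and the median was -0.50. The call of Ifit1 was lost without sg6 replicate 3, WT replicate 1 or WT replicate 3 (-2.80 to -2.67, edgeR adjusted p from 0.0514 to 0.0623), and that of Ddx58 without these or sg6 replicate 2 (-1.09 to -0.90, adjusted p from 0.0901 to 0.104). Those of Isg15 (-1.98, adjusted p = 0.0552) and Oas1g (adjusted p = 0.0617) were lost without WT replicate 1. Usp18, Ddx60 and Ifih1 each lost theirs without sg6 replicate 3 or WT replicate 1 and without 1 or 2 further libraries (adjusted p from 0.0611 to 0.134). In the polyA libraries 15 of 30 were called down (background 7.54% of all polyA genes tested).

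The promoters of Isg15 and Oas1a are shown, from 250 bases before to 50 after the start of the gene, as RefSeq has them in GRCm38. Both were picked from the genes that fell because they hold the letters searched for, so their matches are no finding. Ifi44 (edgeR adjusted p = 0.000598), which also fell, holds none. Capitals mark GAAA, any 2 bases and GAAA again, a core of the element bound by interferon-activated factors, which was searched on both strands (TTTC, any 2 bases, TTTC), overlapping matches included. Isg15 lies on the minus strand at chr4:156200769-156201068 and Oas1a on the minus strand at chr5:120907476-120907775.
Isg15: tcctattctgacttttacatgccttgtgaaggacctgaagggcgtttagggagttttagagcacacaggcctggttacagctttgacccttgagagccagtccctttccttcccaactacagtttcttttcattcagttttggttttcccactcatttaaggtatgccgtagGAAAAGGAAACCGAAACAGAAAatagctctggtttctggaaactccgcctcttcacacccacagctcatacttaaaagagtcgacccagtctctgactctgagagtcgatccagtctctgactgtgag
Oas1a: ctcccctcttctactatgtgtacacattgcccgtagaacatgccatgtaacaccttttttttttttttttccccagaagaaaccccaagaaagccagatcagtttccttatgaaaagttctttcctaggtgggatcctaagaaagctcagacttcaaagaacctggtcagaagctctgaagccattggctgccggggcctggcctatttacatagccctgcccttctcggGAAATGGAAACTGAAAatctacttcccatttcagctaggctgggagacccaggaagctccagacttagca

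Isg15 holds 3 matches and Oas1a 2, counting matches that overlap each other. The letters occur in 1131 of 32851 promoters of this length (3.44%). Of the 23 interferon genes tested 17 had a promoter in the table, and 11 held a match, 7 of 8 that fell and 4 of 9 that were not called. A match describes the letters only.

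**Figure D5:**
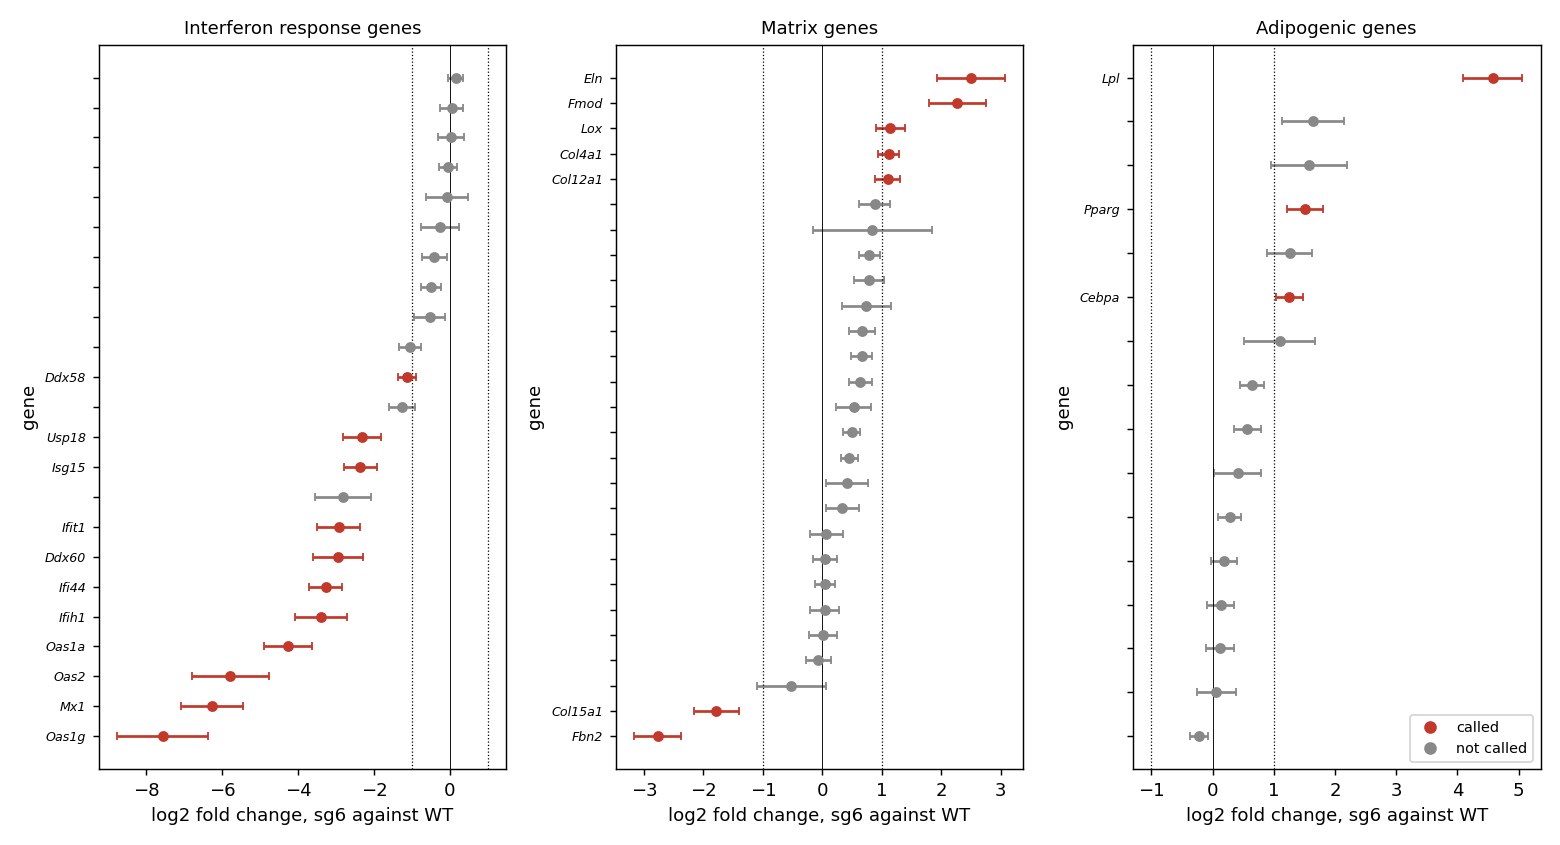
Log2 fold change of sg6 against WT (horizontal axis, points) with its SE (error lines) for each tested gene of the interferon, matrix and adipogenic lists, called genes in red with their names and others in grey without, and dotted lines at 1 and -1. The interferon list has 11 called genes, all below -1, and the adipogenic list has 3, all above 1.

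Genes of the mesenchymal lineages were called in small numbers, mostly upward for fat and matrix. Of 22 adipogenic genes listed and 16 tested, 3 were called, all up (18.8%, background 2.16%). There were 5 with the replicate block and 6 of 21 with no filter. The median log2 fold change was 0.61. Lpl, the lipase that releases fatty acids from lipoproteins, had 0.876, 0.516 and 0.418 CPM in WT and 23.1, 10.3 and 8.94 CPM in sg6. It rose by 4.57 (edgeR adjusted p = 0.000102), more than in sg5 (difference 2.46, adjusted p = 0.0173). Pparg, the master transcription factor of fat cells, had 16.1, 9.18 and 7.88 CPM in WT and 40.5, 27.0 and 26.6 CPM in sg6, without overlap, a change of 1.51 (adjusted p = 0.0133). The call was lost without WT replicate 2 (1.40, adjusted p = 0.0752) and without WT replicate 3 (1.30, adjusted p = 0.0957). Its partner Cebpa rose by 1.25 (adjusted p = 0.00574), or by 1.12 with an adjusted p of 0.0503 without WT replicate 3.

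Of 30 matrix and remodelling genes listed and 27 tested, 5 rose (18.5%, background 2.16%) and 2 fell (7.41%, background 3.59%), and the median was 0.53. Col4a1, a chain of basement membrane collagen, had 168, 207 and 163 CPM in WT and 418, 415 and 333 CPM in sg6, well apart, and rose by 1.11 (edgeR adjusted p = 0.00234). Eln, the gene for elastin, had 62.9, 27.8 and 15.2 CPM in WT and 388, 137 and 71.8 CPM in sg6. The libraries of each line spread over several-fold, and its change was 2.50 ± 0.57 (adjusted p = 0.0294), a call that was lost without sg6 replicate 1, WT replicate 2 or WT replicate 3 (1.58 to 2.35, adjusted p from 0.104 to 0.152) or with at least 10 counts in every library (2.46, adjusted p = 0.0511). Fbn2, the gene for fibrillin-2, had 42.1, 41.4 and 51.9 CPM in WT and 7.02, 3.54 and 9.38 CPM in sg6, and fell by 2.77, whereas in sg5 it gave -0.70 (direct difference -2.06, adjusted p = 0.0298). Without WT replicate 3 the matrix list held 1 gene up and 1 down, with 3 up without sg6 replicate 1 or WT replicate 2.

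Muscle genes gave 2 up (15.4%, background 2.16%) and 1 down (7.69%, background 3.59%) of 13 tested. Acta2, smooth muscle actin, had 279, 177 and 193 CPM in WT and 641, 875 and 800 CPM in sg6 (log2 fold change 1.84, edgeR adjusted p = 0.00738), and Actg2 gave 3.14 (adjusted p = 0.00490). Without WT replicate 3 these were 1.75 and 2.90, with adjusted p of 0.0615 and 0.0512. Mylk fell by 4.45, from 20.4, 11.1 and 14.8 CPM to 1.16, 0.559 and 0.394 CPM. Of 10 osteogenic genes tested, Omd, an osteoblast proteoglycan gene, rose by 1.91 (adjusted p = 0.00291) and Phex, a phosphate-regulating endopeptidase gene, fell by 2.51 (adjusted p = 0.0202). Each was 10% of the genes tested, against 2.16% up and 3.59% down over all genes. Of 15 chondrogenic genes Matn4 alone was called (6.67% up, background 2.16%), at 2.34 (adjusted p = 0.0442). With the replicate block 2 were up and 2 down. The calls of Phex and Matn4 were each lost without any of 4 libraries, both including sg6 replicate 1, WT replicate 1 and WT replicate 3, at -2.57 to -2.11 for Phex and 1.63 to 2.68 for Matn4.

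The progenitor label was read against its markers. Of 20 markers listed 17 were tested, with 2 called up and 2 down, 11.8% each (background 2.16% up and 3.59% down). Of the 17, 9 had a log2 fold change above 0 and 8 below, and the median was 0.05. The summed level of the list, weighted to its most abundant members, was 6017 to 8058 CPM in WT and 9353 to 11900 CPM in sg6. Thy1, a surface marker of mesenchymal stromal cells, had 0.263, 0.221 and 0.446 CPM in WT, 34.1, 25.5 and 24.7 CPM in sg6 and 0.0385, 0.223 and 0.0387 CPM in sg5. It was high in sg6 alone, with a log2 fold change of 6.43 (edgeR adjusted p = 4.42e-07) and a difference from sg5 of 8.25 (adjusted p = 3.76e-07). Etv1, a transcription factor gene of progenitors, fell by 1.91 (adjusted p = 0.000833). Cd34, which the paper reports as decreased beside Etv1 in polyA RNA, was not called here. Its log2 fold change ran from -1.35 to -0.22 in the fits without 1 library. Eng, the gene for endoglin, was called up at 1.32, but its call was lost whichever library was left out (1.22 to 1.45, adjusted p from 0.0690 to 0.222) and with at least 10 counts in every library (1.27, adjusted p = 0.0611). Mcam, a pericyte marker, was called down at -1.92, and its call was lost without sg6 replicate 1, sg6 replicate 3 or WT replicate 2 (-1.84 to -1.63, adjusted p from 0.0576 to 0.0793).

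Markers of other cell types were read at low levels. The 10 epithelial markers summed to 4.25 to 9.40 CPM in WT and 0.689 to 1.10 CPM in sg6, with Krt14 at a log2 fold change of -3.93 and Cdh1 at -3.18, both called down, and 2 of the 10 without a count in all 6 libraries. The haematopoietic markers summed to 2.14 to 2.80 and 1.75 to 2.58 CPM, with 3 of 10 at 0 in all 6 libraries and none called by edgeR among the 1 tested, which also had an unadjusted p above 0.05. The endothelial markers summed to 13.1 to 20.7 and 10.4 to 13.8 CPM, with Erg called down at -2.11, and the neural markers to 55.7 to 68.5 and 89.2 to 153 CPM. The 1 neural marker called, Syt1, a synaptic vesicle gene, was down at -3.62 (edgeR adjusted p = 0.00435), against the direction of that sum. The part of such cells in the results was not tested.

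Genes of the ATRX, DAXX and H3K9 methylation machinery were not called apart from Atrx itself among 28 tested. The listed p53 targets and CDK inhibitors had 0 of 20 called by edgeR and by DESeq2, with 4 at an unadjusted p below 0.05. The list does not hold every p53 target, and Perp, which rose steeply and is given below, is not in it. In the polyA libraries 2 of 21 listed genes were called up (background 3.64% of all polyA genes tested). Cdkn1a, which encodes the inhibitor p21, came closest at 0.91 (edgeR adjusted p = 0.00941), and passed at 1.09 without sg6 replicate 2. The X-linked germline list had 3 of 7 tested genes down (42.9%, background 3.59%). Xlr3c had 23.3, 21.2 and 28.3 CPM in WT and no read in sg6 or sg5, at least 196-fold lower, and its near copy Xlr3a was at least 15-fold lower, with the split of reads between them uncertain. Rhox5, a homeobox gene, fell by 2.97.

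Among the protein-coding genes with the steepest rise, some had no read in WT. Dgkg, a diacylglycerol kinase gene, went from 0 to 1.29, 5.85 and 7.27 CPM (at least 44.3-fold higher), Bves, a gene for a cell adhesion protein of muscle, from 0 to 2.33, 4.14 and 4.08 CPM (at least 32.4-fold), and Zcchc3, a nucleic acid sensor gene, from 0 to 2.02, 1.49 and 1.71 CPM (at least 16.0-fold), being at 0 in sg5 as well. Over all genes 8 of the 288 called up had no count in WT, all of them protein-coding. Perp, a p53 target of desmosomes, had 0, 0.0737 and 0.111 CPM in WT and 31.6, 48.4 and 64.7 CPM in sg6. Stmn2, a gene for a tubulin-binding protein of neurons, had the same WT values and 14.9, 42.6 and 45.5 CPM in sg6. Both were low in sg5 too, and sg6 stood above sg5 by 6.98 for Perp (edgeR adjusted p = 1.18e-05) and by 7.11 for Stmn2 (adjusted p = 1.18e-05). C1qtnf3, an adipokine gene, had 6.66, 2.43 and 4.20 CPM in WT and 1000.1, 288 and 386 CPM in sg6, a change of 6.98 that sg5 shared at 7.40. Trim44 at 8.39, Sema3e at 7.07, Qrfpr (at least 18-fold) and Usp13 (at least 16.3-fold) complete the 10 highest.

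The 10 lowest protein-coding genes had no read in any sg6 library. Gpr149, an orphan receptor gene, had 5.74, 11 and 18.5 CPM in WT and was at least 94.5-fold lower. Pde3b, the gene of an insulin-regulated phosphodiesterase of fat cells, had 8.67, 10.4 and 10.3 CPM and was at least 78.8-fold lower. Eya1, a developmental phosphatase and coactivator gene, had 5.91, 7.34 and 7.69 CPM and was at least 56.2-fold lower. Each of the 3 was at or close to 0 in sg5 too, with no more than 1 library above 0. By the same floor C130026I21Rik was at least 110-fold lower, Gm7609 52.6-fold, Pde1a, a calmodulin-dependent phosphodiesterase gene, 31.8-fold, Nrk 27.7-fold, Cpa6 26.8-fold and Gm15085 26.6-fold, and Xlr3c is given above.

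By chromosome, the median over genes was higher in the sg6 libraries than in WT in some cases. Positions along a chromosome were not compared. The median log2 ratio to the mean of WT over genes was 0.39 to 0.42 in the 3 sg6 libraries on chromosome 12, 0.35 to 0.41 on chromosome 18 and 0.24 to 0.33 on chromosome 8, and -0.20 to -0.16 on chromosome 5. The single WT libraries ran from -0.12 to 0.11, -0.08 to 0.08, -0.15 to 0.13 and -0.12 to 0.09 on these chromosomes, in the same order. The polyA libraries gave 0.40 to 0.43, 0.38 to 0.41 and 0.30 to 0.31 for the first 3. The sg5 libraries were also above WT on these, with 0.30 to 0.42 on chromosome 12, 0.44 to 0.61 on chromosome 18 and 0.28 to 0.41 on chromosome 8. On chromosome 13 the clones lay apart, with 0.18 to 0.22 in sg6 and -0.11 to -0.01 in sg5, and in polyA 0.27 to 0.29 and -0.07 to -0.00. The number of gene copies and the rate of transcription cannot be told apart in RNA. Mir6939 and Akt1 lie on chromosome 12 and Mir328 and Elmo3 on chromosome 8, and Xist and Tsix on the X chromosome, where the medians of sg6 were -0.00 to 0.03.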

How the data were processed

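RNA of the WT, sg6 and sg5 lines was measured in 9 rRNA-depleted and 9 polyA libraries, 3 per line and kind, grouped by the sample labels. Reads of the rRNA-depleted libraries were mapped to mm10 with STAR (2.27.10a) by the authors, who deposited raw counts of each gene and transposable element locus made with TElocal. For the polyA libraries, the authors deposited estimated counts of each gene from Salmon (0.8.2 per the labels) and tximport, which are whole numbers here. The strand setting of the counting is not given in the sources used here. The number of per-sample columns left unused is 0. Nothing in the labels says that the libraries of a line came from separate cultures, so p-values measure only the spread between these libraries, which may be technical.

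The rRNA-depleted table was filtered with filterByExpr (minimum count 10, minimum total 15, large group size 10, proportion 0.7), scaled by TMM and fitted with edgeR 4.0.16 (R 4.3.3) as 1 model of 3 lines over 56086 features, genes and loci together, with Benjamini-Hochberg adjustment over all of them. The polyA table was fitted alone in the same way. CPM of each library used the TMM library size. A group without counts was set to 3 counts per library for lower bounds. Intervals (95%) and floors cover counting error only. Shares were compared by exact two-sided permutation tests. Gene types, positions, promoters and mature miRNAs come from RefSeq for GRCm38.p6, in which 24045 of the 24100 genes were found, and strands from GENCODE. Figures were drawn with matplotlib 3.10.9.

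Named genes are Atrx, a set of noncoding RNAs, the 10 highest and 10 lowest called noncoding and protein-coding genes (mean of at least 1 CPM in the higher line, lines not overlapping), and called members of gene lists, up to 6 by smallest adjusted p. Cerox1, Arhgap20os, Msx1os, the neighbours and hosts of noncoding genes, Eln, 9430018G01Rik, interferon genes beyond the first 6, the not-called genes given with values and further histone genes were added after their values were seen. The members, lists and tests were chosen with earlier results of these data known, so a list's count is no independent support.

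Replicate numbers come from the labels. In each kind of library, libraries with the same number deviated together from their line means (r from 0.190 to 0.671 in rRNA-depleted and from 0.206 to 0.702 in polyA libraries). Those with different numbers gave r from -0.686 to 0.356 and from -0.697 to 0.006, so the ranges overlapped in rRNA-depleted libraries. The numbers were taken to pair the samples in the block and in the shares within pairs. The fit without a block was kept, since the study's methods name none, so its p-values leave the pairing out. The alternatives were that block, DESeq2 1.42.0, median-of-ratios factors, no filter, genes alone, a fit of only the 6 libraries, a minimum of 10 counts in each library, and leaving out each library. Shares were also compared within pairs, which was added after the data were seen. The fit was tested on simulated counts.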

Additional observations from a re-analysis of the deposited data

Results flagged for a closer look

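For these named genes the sg6 clone differed from the sg5 clone in the direct test of the clones in the same fit (log2 fold change of sg6 against sg5, edgeR quasi-likelihood test, adjusted p below 0.05). Among noncoding genes, Tsix (-11.57, with no count in sg6), Xist (-10.49), AI662270 (-4.50), 4930570G19Rik (-3.36) and Msx1os (-1.85) were lower in sg6, and Mir328 (3.21), H19 (3.21) and 9430018G01Rik (1.41) were higher. Against WT, 9430018G01Rik was itself called down in sg6 (-1.53, edgeR adjusted p = 0.000775), and sg5 gave -2.93. Msx1 (-2.10), which Msx1os overlaps, was lower too, and Elmo3 (3.08), around Mir328, was higher. Among imprinted protein-coding genes, Ndn was lower in sg6 (-3.23) and Plagl1 higher (3.22). Thy1 (8.25) and Etv1 (1.59), both progenitor markers, and Lpl (2.46), a lipase gene of fat cells, were higher in sg6, and Fbn2 (-2.06), a matrix gene, and Erg (-1.65), an endothelial transcription factor gene, were lower. Of the protein-coding genes with the steepest rise, Zcchc3 (8.47, with no count in sg5), Stmn2 (7.11), Perp (6.98), Usp13 (4.80) and Dgkg (3.17) were higher in sg6 than in sg5, and Bves (-1.95) was lower. Each value compares 3 libraries of 1 clone with 3 of another, and what else differs between the clones was not tested.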

How the results depend on the processing

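Counts of called genes kept within 1.5 times of their size under DESeq2, median-of-ratios factors, no filter, only the 6 libraries and genes alone, with 299 to 397 up and 464 to 573 down in rRNA-depleted libraries. With at least 10 counts in every library, which removes genes silent in any line, there were 168 up and 200 down, and in polyA 372 up and 730 down. Leaving out 1 library gave 170 to 299 up and 328 to 461 down, with the 170 up without WT replicate 3, and in polyA 465 to 661 up and 1021 to 1342 down. With the replicate block the counts were 361 up and 598 down, in polyA 598 and 1219, and among the named genes the block changed the call of H19 alone. H19 was also called by DESeq2 (-1.21, adjusted p = 0.0362), with genes alone (-1.26, adjusted p = 0.0380) and with only the 6 libraries (-1.22, adjusted p = 0.0453). The histone share difference stayed between -1.41 and -0.77 percentage points without 1 library, while those of all noncoding genes (-0.34 to 0.30) and of the other RNAs without a tail (-0.23 to 0.31) changed sign. The within-pair fit of the shares, chosen after seeing the data, left their differences as they were. With at least 10 counts in every library 11 noncoding genes were down and 2 up, and the calls of Eln, Eng and Mir6939 were lost. With no filter those of Mir6939, Mir7225 and Msx1os were lost. Genes near the count filter, among them the called miRNA genes, are limited by depth. No setting turned the direction of a called result.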
